A study of Drosophila melanogaster with 2 samples.

Results

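The genes described here are 10 heat shock and cognate chaperone genes of Drosophila melanogaster, chosen by name out of 13945 protein-coding genes on the main chromosome arms. Of these, 5 were grouped as heat-inducible (DnaJ-1, Hsp83, Hsp22, Hsp26 and Hsp27), 4 as constitutive (Hsc70-3, Hsc70-4, Hsc70-5 and Hsp60A), and Hsf, which encodes the heat shock transcription factor, was kept apart. The grouping is textbook knowledge, and Hsp83 also has a high level without heat shock. The question was at which of these promoters the tagged protein CG2129-eGFP was recovered.

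Chromatin immunoprecipitation and sequencing (ChIP-seq) was carried out on whole embryos of 0 to 4 h from flies carrying CG2129, a C2H2 zinc finger protein, fused to enhanced green fluorescent protein (eGFP). The fusion was recovered through its GFP tag from chromatin sonicated to 200 to 800 bp, and the series holds 2 biological replicates of this 1 group. The labels name no heat treatment and not the promoter that drives the fusion, so the values belong to embryos without a stated heat shock. A control experiment was not analysed here, read depth is unknown from peak lists, and each value averages over all cells of the embryo.

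Each deposited list gives peaks with a summit and a signal. The irreproducible discovery rate (IDR) estimates how many peaks ranked this high would fail to recur between rankings. All IDR values here were read from the ranked lists. Thresholded lists hold peaks with −log10 IDR of at least 2, that is an IDR of 0.01 or less, and the ranked lists hold weaker peaks too, with −log10 IDR limited to 5. A gene was called when a summit lay within 500 bp of one of its annotated transcription start sites (TSSs). The pooled thresholded list of 2067 peaks is the main one. The conservative list of the pooled replicates has 2017 peaks, replicate 1 alone has 1681 and replicate 2 alone has 1347. The scale of the signal is not stated, so signals are compared only as higher or lower within a list, and ranks count from 1 for the strongest peak. Distances are counted from the TSS along the gene, negative upstream.

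Chaperones bind unfolded proteins and help them fold, hold them in solution or pass them to proteases. HSP70 proteins work in cycles driven by J-domain co-chaperones, HSP90 acts late on signalling proteins, HSP60 forms a folding chamber in mitochondria, and small heat shock proteins hold unfolded clients without using ATP. On heat, the heat shock factor forms trimers that bind heat shock elements, which are inverted repeats of the unit GAA, and transcription of the inducible genes starts within minutes from polymerase that is already paused at the promoter. The cognate (Hsc) genes are transcribed without heat, and early embryos also receive chaperone mRNA from the mother.

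The sequences beneath the summits are shown for DnaJ-1, Hsp83 and Hsp60A, which are 3 of the 4 members with a TATCGAT match within 500 bp of a TSS, because these stretches place the match against the peak. TATCGAT is the core of the DNA replication-related element (DRE, TATCGATA), which the factor DREF binds. The stretches come from the NCBI copy of Release 6 in dm6 coordinates, run 5′ to 3′ along the gene, and have each TATCGAT match, on either strand, in capitals. They were chosen after the matches were seen. The first Hsp83 stretch lies at the stronger summit of that gene and the second at its weaker one.
DnaJ-1, chr3L:5752239-5752349, minus strand: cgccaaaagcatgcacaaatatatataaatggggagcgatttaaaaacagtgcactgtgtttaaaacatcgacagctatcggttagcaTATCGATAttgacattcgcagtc
Hsp83, chr3L:3192494-3192572, plus strand: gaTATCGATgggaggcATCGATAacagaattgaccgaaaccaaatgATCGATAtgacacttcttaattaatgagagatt
Hsp83, chr3L:3192759-3192809, plus strand: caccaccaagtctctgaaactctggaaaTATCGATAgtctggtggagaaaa
Hsp60A, chrX:11108302-11108452, plus strand: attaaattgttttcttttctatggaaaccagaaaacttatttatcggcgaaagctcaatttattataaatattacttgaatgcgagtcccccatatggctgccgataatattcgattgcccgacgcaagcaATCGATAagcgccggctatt

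For comparison, the next 3 stretches hold heat shock elements, with the match in capitals. They are shown because 1 lies under the Hsp22 peak and the others lie at promoters that had no thresholded peak. The Hsp22 match lies 34 bp downstream of the Hsp22 summit, in the 5′ UTR of the longer transcript. The Hsp26 match lies at −124 of the upstream TSS. The Hsc70-4 match joins 3 units in alternating orientation and lies at −199 of the TSS at 15243156, inside an annotated UTR of a longer transcript.
Hsp22, chr3L:9373801-9373827, plus strand: gagccccaGAAACTTCcacggagttcg
Hsp26, chr3L:9377488-9377587, minus strand: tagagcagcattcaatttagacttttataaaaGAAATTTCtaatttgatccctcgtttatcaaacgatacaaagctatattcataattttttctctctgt
Hsc70-4, chr3R:15242944-15242973, plus strand: gcaaggtTTCTCGAACTTTCgaccccagtg

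CG2129-eGFP peaks were present at 6 of the 10 promoters in the pooled thresholded list: DnaJ-1, Hsp83, Hsp22, Hsc70-3, Hsc70-5 and Hsp60A. Among all protein-coding genes 17.3% were called by the same rule. The conservative list called 5 of the 10, all of these but Hsp22, beside 16.8% of all genes. Replicate 1 alone called the same 6 members, beside 14.9% of all genes. Replicate 2 alone called 4, without Hsp22 and Hsp60A, beside 12.2% of all genes. DnaJ-1, Hsp83, Hsc70-3 and Hsc70-5 were therefore in the own lists of both replicates, which held for 10.7% of all genes. The members were chosen by name with earlier results of these data known, so these shares are set side by side without a test. In the pooled ranked list, which reaches down to weak peaks, 9 of the 10 had a peak, all but Hsp26, beside 60.9% of all genes. A ranked peak was thus common among genes in general.

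**Figure D1:**
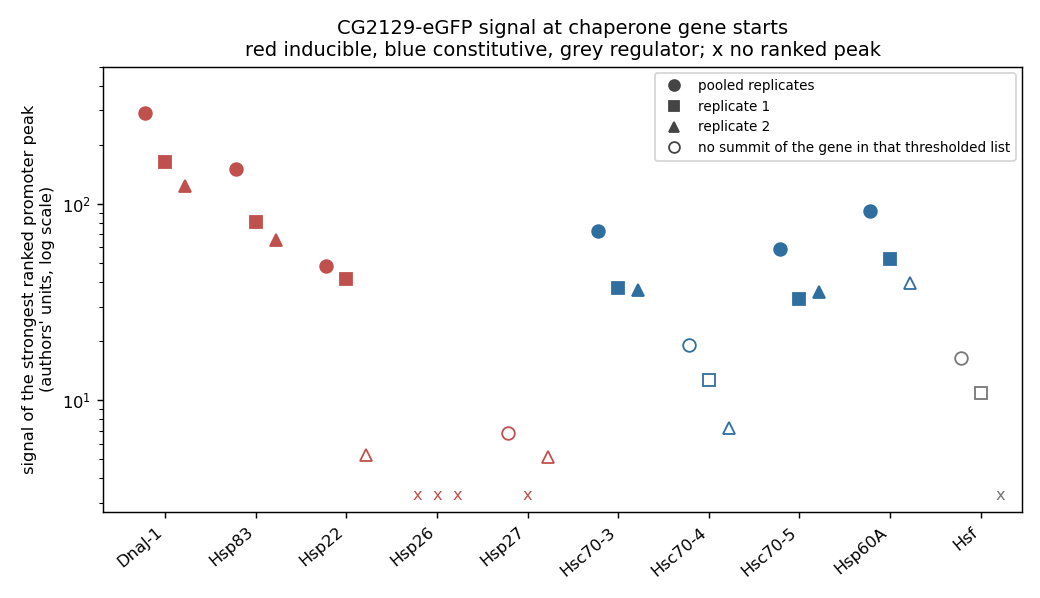
Signal (authors' values, scale not stated, log axis) of the strongest ranked promoter peak of each of the 10 genes in the pooled list, replicate 1 and replicate 2. Filled points are genes with a summit in the matching thresholded list, open points are genes without one, and x marks no ranked peak. A filled point need not be the thresholded peak: for Hsc70-5 the pooled (59.2) and replicate 1 (32.7) points are stronger summits absent from those thresholded lists. DnaJ-1 is the highest in every list, Hsp26 has no value, and Hsp22 is filled in replicate 1 (41.3) and open in replicate 2 (5.25).

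The inducible genes spread over nearly the whole range of signals, and the constitutive genes lay within it. Of the 5 inducible genes 3 were called, and 3 of the 4 constitutive genes were called. The strongest ranked promoter peaks of the inducible genes ran from 6.83 to 291, with a median of 99.7 over the 4 genes that had one. Those of the 4 constitutive genes ran from 19.2 to 92.2, with a median of 65.9. For Hsc70-5 the value was 59.2, from a summit that is not in the pooled thresholded list, where its summit had 48.8. Over the 8491 genes with a ranked promoter peak the signal ran from 6.02 to 511 with a median of 22.8. DnaJ-1 and Hsp83 lay above all 4 constitutive genes, Hsp27 lay below all 4, Hsp22 lay among them and Hsp26 had none. The Hsp83 value, 151, which also enters the inducible median, came from a summit at −401 that lay 77 bp from the TSS of CG14965. The Hsp83 summit at −202 had 41.7, below the values of Hsp60A, Hsc70-3 and Hsc70-5. The classes therefore overlapped, and with 5 and 4 genes chosen with results known no test was made. With Hsp83 counted apart, 2 of 4 inducible genes were called.

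**Figure D2:**
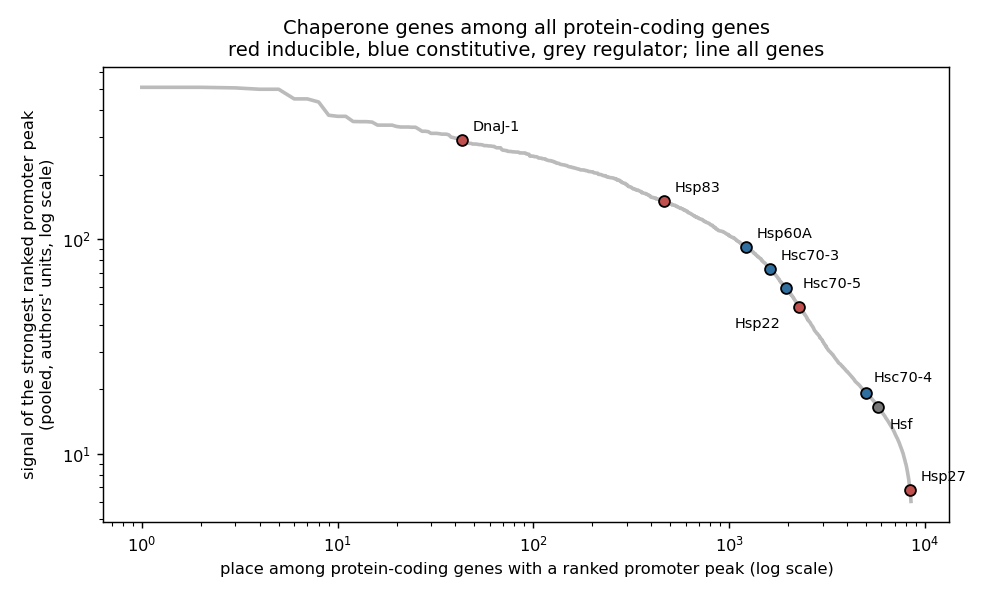
Signal of the strongest pooled ranked promoter peak (authors' values) against its place, both on log axes, among the 8491 protein-coding genes that have one, with the members marked. DnaJ-1 stands at place 43 and Hsp27 at place 8381, so inducible genes mark both ends of the members' range.

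DnaJ-1 had the strongest peak of the 10. It encodes the main heat-inducible J-domain co-chaperone of HSP70 and lies at 3L 5750029 to 5752189 on the minus strand (FBgn0263106, 1 TSS). Its peak had a signal of 291 in the pooled list, 163 in replicate 1 and 123 in replicate 2, and a −log10 IDR at the limit of 5 in each of these ranked lists. It ranked 26 of 2067 in the pooled thresholded list, 36 of 1681 in replicate 1 and 33 of 1347 in replicate 2. Both replicates thus placed it near the top, and the pooled signal put DnaJ-1 in the first 0.308% of all protein-coding genes. The summits lay close together, at −137 in the pooled list, −140 in replicate 1 and −154 in replicate 2. The peak ran from 5752159 to 5752557 and thus covered the TSS at its downstream end. Each replicate also listed a much weaker summit further upstream, with a signal of 22.5 at −339 in replicate 1 and 9.83 at −355 in replicate 2. These second summits also lay within 500 bp of a TSS of Usp47, a gene of a ubiquitin-specific protease, at −445 and −429 from it. In the pooled ranked lists the summit at −341 had a signal of 51.5, with −log10 IDR of 0.07 in one and 0.20 in the other. Neither the pooled thresholded list nor the conservative list holds it.

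In the DnaJ-1 stretch printed above, the only TATCGAT match within 500 bp of the TSS is the full DRE at −68. It lay 68 bp from the pooled summit, 72 bp from that of replicate 1 and 86 bp from that of replicate 2, on the side of the TSS each time. A heat shock element of 2 units (GAANNTTC, where N is any base) lay at −4, 134 bp from the pooled summit. The genes outside this peak whose ranks were most like those of DnaJ-1, over 3 thresholded lists and 1472 genes, were Serinc, Hsepi and PGAP3. Serinc ranked 35, 40 and 34 in the pooled list, replicate 1 and replicate 2. Hsepi and PGAP3 both ranked 30, 41 and 41, as 1 shared peak would give, so they may not be separate cases. The likeness is the sum of absolute log2 rank differences, which was 0.624 for Serinc and 0.707 for each of the others.

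Hsp83 had the next strongest peak, in both replicates, but at a distance from its TSSs and nearer to another gene. Hsp83 encodes the cytosolic HSP90 and lies at 3L 3192969 to 3197059 on the plus strand (FBgn0001233), with TSSs at 3192969 and 3193216. Its peak had a signal of 151 in the pooled list, 81.1 in replicate 1 and 65.5 in replicate 2, with −log10 IDR of 4.68 in replicate 2 and near the limit of 5 in the others. It ranked 300 of 2067, 368 of 1681 and 301 of 1347 in those thresholded lists, and the gene stood in the first 3.33% of all protein-coding genes. The summit lay at −401, −395 and −399 from the first TSS, and at −648 from the second in the pooled list. That summit lay 77 bp upstream of the TSS of CG14965, which is transcribed away from Hsp83 and starts 478 bp from it. A promoter of 200 bp, or giving each summit only to its nearest TSS, left Hsp83 uncalled.

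A second, weaker Hsp83 summit lay closer to the gene. It had a signal of 41.7 at −202 in the conservative list, where it ranked 1676 of 2017, and 31.5 at −198 in replicate 2, where it ranked 1030 of 1347. The pooled thresholded list does not hold it: its −log10 IDR was 0.10 in one pooled ranked list and 3.52 in the other. Replicate 1 had no thresholded summit there and a ranked one of 22.4 at 26 bp upstream of the second TSS. The TATCGAT matches at Hsp83 lie near both of its summits. Matches at −470, −456 and −426 lay 69, 55 and 25 bp from the pooled summit. A full DRE at −178 lay 24 bp from the summit of the conservative list and 20 bp from the weaker summit of replicate 2. The heat shock element found at this gene lay elsewhere, 64 bp upstream of the second TSS, with a TATA box (TATAAA) 28 bp upstream of it.

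**Figure D3:**
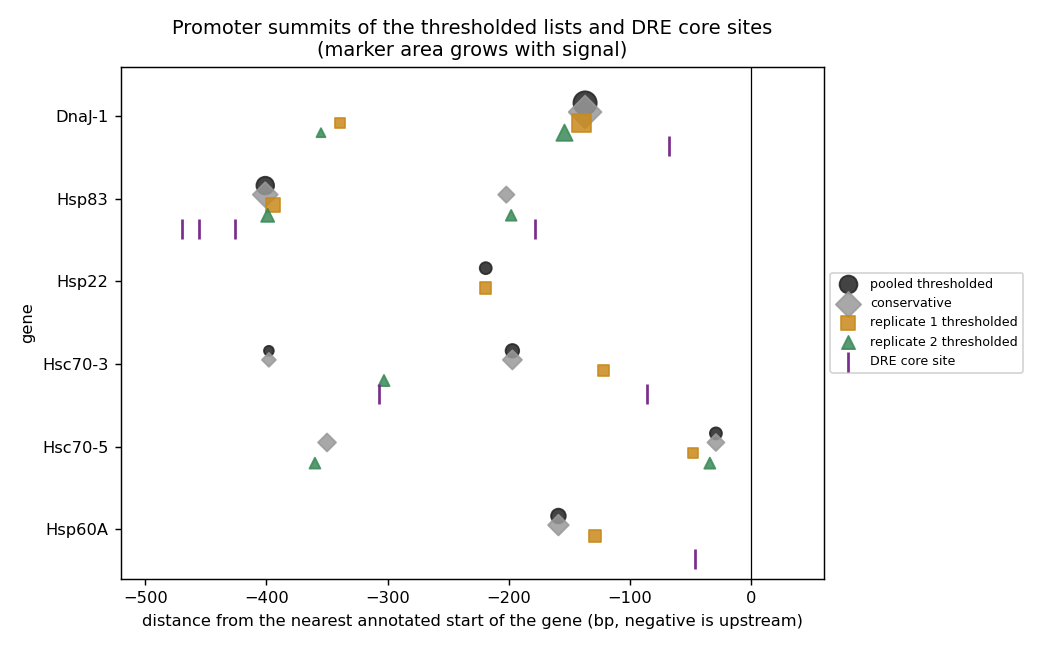
Positions of the thresholded summits of the called genes, in bp from the nearest TSS of the gene (negative upstream), in the pooled, conservative, replicate 1 and replicate 2 lists, with the TATCGAT matches as ticks and marker area growing with signal. All pooled summits lie upstream of the TSS, the strongest from −401 at Hsp83 to −29 at Hsc70-5.

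Hsp22 was called on the strength of replicate 1. It encodes a small heat shock protein of the mitochondrial matrix and lies at 3L 9372931 to 9374964 on the plus strand (FBgn0001223), with TSSs at 9372931 and 9373997. The peak had a signal of 48.5 in the pooled list, 41.3 in replicate 1 and 5.25 in replicate 2, and ranked 1720 of 47947, 1195 of 40775 and 37116 of 47717 in those ranked lists. The −log10 IDR was 2.54 in the pooled list, 2.78 in replicate 1 and 0.03 in replicate 2. The second pooled ranked list gave the same peak 0.06, and the conservative list does not hold it. Of the 2418 genes called in the pooled list, 17 (0.703%) stood at that rank in replicate 2, below it, or had no promoter peak there, while the median rank was 884. Without this peak 5 members were called. The pooled summit lay at −219 from the second TSS and inside the gene by 847 bp from the first, in the 5′ UTR of the longer transcript. CG4456, also known as Hsp67Bb, is annotated over the same stretch on the same strand. No TATCGAT lay within 500 bp of either TSS. Heat shock elements lay at −184 and −84 of the second TSS. The GAGA repeat GAGAG, bound by GAGA factor, had 6 matches within 100 bp of the summit, some of them overlapping. Among all summits 15.5% had a match at that distance.

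Hsp26 and Hsp27 had no thresholded summit in any list. Hsp26 encodes a cytosolic small heat shock protein and lies at 3L 9376418 to 9377427 on the minus strand (FBgn0001225); no ranked peak of any list had its summit within 500 bp of either of its TSSs. Hsp27, a nuclear small heat shock protein, lies at 3L 9384063 to 9385694 on the plus strand (FBgn0001226). Its strongest ranked peak had a signal of 6.83 in the pooled list, at rank 44989 of 47947, and 5.17 in replicate 2, at rank 37563 of 47717, and replicate 1 had none. The pooled value stands near the bottom of its list. Neither promoter held a TATCGAT. Hsp26 has a heat shock element and 6 GAGAG matches, some of them overlapping, in its promoter. Hsp27 has a TATA box at −26 but no GAANNTTC from 250 bases before to 50 after its TSS. The other order of 2 units, TTCNNGAA, was not searched on its own.

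Hsp22, Hsp26 and Hsp27 lie with other small heat shock genes in 1 cluster on 3L, from 9371511 to 9385694. The peak at Hsp22 was the only thresholded peak in that span. Ranked peaks that missed the threshold had signals of 20.9 at Hsp67Bc, 15.4 at Hsp67Ba and 23.5 at Hsp23, and a further one of 18.3 lay within Hsp67Ba, away from its start. The −log10 IDR of these ran from 0.03 to 0.11. Stronger peaks stood outside the cluster, with signals of 211 and 93.7 at −5.757 and −5.555 kb from the Hsp22 start. Those lie between the starts of Klp67A, a kinesin gene, and CG4452. The cluster thus held 1 thresholded peak, in the list of replicate 1 and absent from that of replicate 2.

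**Figure D4:**
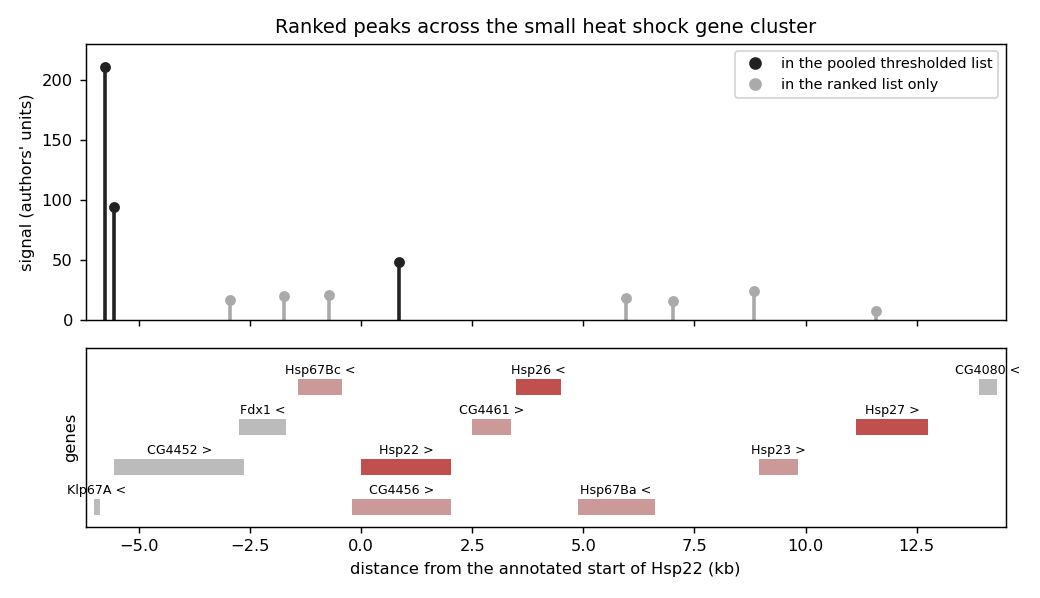
Pooled ranked peaks across the small heat shock gene cluster on 3L, with signal (authors' values, linear axis) against distance from the Hsp22 start in kb. Genes are drawn beneath, red for members, pale red for other heat shock genes and grey for the rest, with > for the plus and < for the minus strand. The Hsp22 peak (48.5) is the only thresholded one among the heat shock genes, and the peaks of 211 and 93.7 stand at the neighbouring Klp67A and CG4452 starts.

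Among the constitutive genes, Hsp60A had the highest signal. It encodes the mitochondrial HSP60 and lies at X 11108482 to 11112308 on the plus strand (FBgn0015245, 2 TSSs). The signal was 92.2 in the pooled list, 52.6 in replicate 1 and 39.7 in replicate 2, at ranks 850 of 47947, 856 of 40775 and 857 of 47717. The ranks were thus alike in both replicates. The −log10 IDR was 3.50 in the pooled list and 3.39 in replicate 1, but 1.59 in replicate 2, which is under the threshold of 2, and the thresholded list of replicate 2 does not hold the gene. The summit lay at −159 in the pooled list and −129 in replicate 1, and replicate 2 split into ranked summits of 39.7 at −230 and 23.2 at −19. The 1 TATCGAT, at −46, lay 113 bp from the pooled summit and 27 bp from the weaker summit of replicate 2.

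Hsc70-3 was called in all 4 thresholded lists. It encodes BiP, the HSP70 of the endoplasmic reticulum, and lies at X 11801696 to 11807117 on the minus strand (FBgn0001218, 4 TSSs). The signal was 72.7 in the pooled list, 37.5 in replicate 1 and 36.4 in replicate 2, with −log10 IDR of 3.03, 2.68 and 2.85. It ranked 1106 of 2067, 1233 of 1681 and 903 of 1347 in those lists, so it stood in the weaker part of each. The replicates placed the summit apart, at −122 in replicate 1 and −303 in replicate 2, with the pooled summit at −197 and a second pooled one of 19.3 at −398. The second ranked only 8739 of 47947 in the pooled ranked list, with the same −log10 IDR of 3.03 as the stronger peak it overlaps. A ranked summit of 23.7, at −52 from another TSS of the gene, had 0.11 and missed the threshold. No other member had more than 1 pooled thresholded summit, and 16.7% of all called genes had. The peak was not shared with another gene. Hsc70-3 has TATCGAT matches too, 1 of them 36 bp from the summit of replicate 1 and another 4 bp from that of replicate 2. From the stronger pooled summit the nearer of these lay 110 bp away, and from the weaker pooled summit 91 bp.

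Hsc70-5 was called in all 4 thresholded lists as well, in the weaker part of each. It encodes the mitochondrial HSP70 and lies at 2R 14252598 to 14256192 on the minus strand (FBgn0001220), with TSSs at 14256061 and 14256192. The thresholded summit lay at −29 with a signal of 48.8 in the pooled list, at −48 with 24.6 in replicate 1 and at −34 with 35.4 in replicate 2. The ranks were 1570 of 2067, 1512 of 1681 and 927 of 1347. This was the only called member whose pooled summit lay within 100 bp of a TSS. A stronger ranked summit, 59.2 at −350, lay 49 bp inside CG8531, which starts 301 bp away in the opposite direction. It was in the conservative list (−log10 IDR 2.94) and not in the pooled thresholded list (0.52). Replicate 2 also listed it, with 33.0 at −360, while replicate 1 had a ranked summit of 32.7 at −440 with −log10 IDR of 0.09. No TATCGAT lay within 500 bp of an Hsc70-5 TSS, and the shorter match CGATA lay 18 bp from the pooled summit. CGATA is common, within 100 bp of the strongest pooled thresholded summit at 4 of the 6 called members and at 81.3% of all summits.

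Hsc70-4, the major cytosolic HSP70 cognate, was the constitutive gene without a thresholded summit. It lies at 3R 15242687 to 15246614 on the plus strand (FBgn0266599) and has 6 TSSs. It had 5 ranked summits in the pooled list, the strongest of 19.2 at 158 bp downstream of a TSS, at rank 8869 of 47947 and −log10 IDR of 0.03. Replicate 1 gave 12.7 and replicate 2 gave 7.23, at another TSS. Replicate 1 also ranked a summit of 10.1 at −452, which lay 1 bp from the start of tefu, the ATM kinase gene on the opposite strand 451 bp away. The pooled value lay below the median of 22.8 over all genes with a ranked peak. Hsc70-4 was the only member with a heat shock element of 3 units in its promoters, which 0.567% of all protein-coding genes had.

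Hsf, whose product binds those elements, was not called either. It lies at 2R 18130303 to 18134634 on the minus strand (FBgn0001222). Its strongest ranked peak had a signal of 16.5 in the pooled list at rank 13469 of 47947, and 10.9 in replicate 1, and replicate 2 had none within 500 bp of the TSS. The promoter of the regulator thus stood with those of Hsc70-4, Hsp26 and Hsp27 on the uncalled side.

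The strongest thresholded pooled summits of the 6 called members were all upstream of the nearest TSS of the member, with a median of −178, and 5 of 6 stood at least 100 bp upstream. Among all 2418 called genes 84.7% had their strongest summit upstream, 38.0% at least 100 bp upstream, and the median was −70. No test of that difference was made. Counted from the annotated gene start alone, the summits of Hsp22 and Hsc70-5 lay downstream, at 847 and 102 bp. A peak counted as shared when another gene of any type but transposable elements had a TSS within 500 bp of its summit. The strongest peak was shared at 2 of 6 members, Hsp83 and Hsc70-5, and at 64.9% of all called genes. Pooled thresholded peaks were mostly of 1 length, 404 bp (1240 of 2067), as were those of Hsp22, Hsc70-3 and Hsp60A. DnaJ-1 (399 bp), Hsp83 (301 bp) and Hsc70-5 (163 bp) had peaks of other lengths.

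TATCGAT within 500 bp of a TSS was present at 4 of the 6 called members (66.7%: DnaJ-1, Hsp83, Hsc70-3 and Hsp60A) and at none of the 4 uncalled ones. Among all protein-coding genes it was present at 75.1% of the called and 19.6% of the others. Within 100 bp of the strongest pooled thresholded summit it was present at 2 of 6, DnaJ-1 and Hsp83. That was set against 54.6% of all 2066 summits on the arms, second summits of a gene included. Within 250 bp it was present at 4 of 6, against 67.0%. The motif 7 core (CAGCNCTA, CAGCNCTG, CATCNCTA or CATCNCTG) and the M1BP core GGTCACACT had no match within 100 bp of any member's strongest summit, against 33.8% and 5.28% of all summits. Within 250 bp motif 7 was matched at 2 of 6, Hsc70-3 and Hsp60A, against 48.3% of all summits, and the M1BP core at 0 of 6, against 8.66%. The second pooled summit of Hsc70-3, not counted here, had TATCGAT 91 bp away and motif 7 66 bp away.

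Heat shock elements of 2 units were searched only as exact GAANNTTC. These counts leave out the other order, TTCNNGAA, and elements with an imperfect unit. Matches lay in a promoter (250 bases before to 50 after a TSS) of 6 of the 10 genes: DnaJ-1, Hsp83, Hsp22, Hsp26, Hsc70-4 and Hsp60A. Among all protein-coding genes 1675 of 13945 had one. They were in 4 of 5 inducible and 2 of 4 constitutive genes, and in 4 of 6 called and 2 of 4 uncalled members. Within 100 bp of the strongest pooled thresholded summit an element was present at 1 of 6 called members, Hsp22, and at 5.57% of all summits. Both strands were searched for each motif, and TATCGATA contains TATCGAT on both. A match is a run of letters and was not tested for binding.

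Other genes of the chaperone system were called about as often as genes in general. Of 42 further chaperone genes 7 (16.7%) were called in the pooled list, set against 17.3% of all protein-coding genes. They were 1 of 12 further inducible genes and 6 of 30 others. In the conservative list 8 were called, in replicate 1 alone 6 and in replicate 2 alone 4. The higher share among the 10 genes above was therefore not seen in the wider list, and the 10 were chosen by name. In the pooled ranked list 26 of 42 (61.9%) had a peak.

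The peaks of the 7 called genes are given here with the role of each. As a share they were near that of all genes, so no pattern by role is read from them. Hsp110 (listed as Hsc70Cb), a nucleotide exchange factor of HSP70, had the strongest of these peaks, with a signal of 224 at −68 in the pooled list, 131 in replicate 1 and 86.7 in replicate 2. It was shared with the antisense RNA gene asRNA:CR42871 in each of these lists. P58IPK, a J protein of the endoplasmic reticulum, followed with 140 at −75, with 76.9 and 58.4 in replicates 1 and 2. Trap1, the mitochondrial HSP90, had 106 at −211, a peak shared with Bap170, and Roe1, the mitochondrial nucleotide exchange factor, had 102 at 12 bp downstream. These 4 genes were in the lists of both replicates. Cdc37, which brings kinases to HSP90, had 63.6 at its TSS, shared with alpha-Spec and dlt, and the J protein DnaJ-60 had 53.3 at −11, shared with CG42568 and spag. Both were in the list of replicate 1 and not in that of replicate 2. The only further inducible gene called was stv, a BAG-domain partner of HSP70, with 46.1 at −232 and no thresholded summit in either replicate's list.

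None of the 6 copies of Hsp70, the chief inducible chaperone, had a thresholded summit. In the pooled ranked list Hsp70Ab had 13.1 and Hsp70Ba had 25.9. These copies are near identical, so where their reads were placed is uncertain. By role, none of 5 further small heat shock genes and none of 5 genes of the HSP60 and HSP10 family was called. The calls were 2 of 11 J proteins, 2 of 4 HSP70 cognates and partners, 1 of 2 HSP90 genes and 1 of 3 HSP90 co-chaperones. The inducible genes had 1 of 12. Among all protein-coding genes 17.3% were called, and these groups are too small to be compared with one another.

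**Figure D5:**
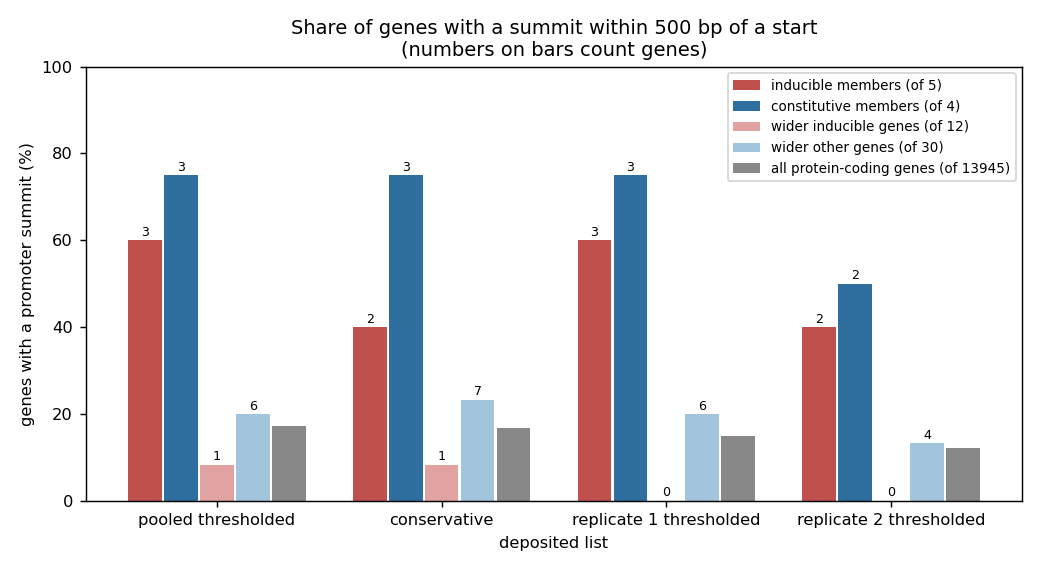
Share of genes called (%, summit within 500 bp of a TSS) in each thresholded list for the inducible and constitutive members, the further inducible and other chaperone genes and all 13945 protein-coding genes, with the number of genes on the bars. The bars of both member classes stand above those of the further chaperone genes and of all genes in each list, on 5 and 4 genes chosen by name.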

How the data were processed

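ChIP-seq peak lists of 2 biological replicates were used. The authors deposited, per the labels and the readme text, ranked and thresholded lists on dm6 for each replicate and for both pooled. The deposited signal is the value of the authors' peak caller, with no stated scale, and the deposited −log10 IDR is the authors' measure of repeatability. The aligner, the caller, the versions of both and the rankings behind each IDR were not given in the sources used here. Another 16 columns of per-replicate values in the pooled ranked lists were not used, because nothing ties them to a sample.

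Every transcript start in Ensembl release 115, whose arm coordinates are those of dm6, was compared with the summits (Python 3.11.15, pandas 2.3.3, numpy 2.4.6). Ranks follow signal within a list. Motifs were matched by letters on both strands in the NCBI Release 6 sequence. The assignment of summits and the motif search were tested on simulated data. Intervals were not computed, since peak lists carry no read counts, and no test was made. All 10 members are named, and of the further chaperone genes every one called in the pooled list, all genes sharing a member's peak, and the 3 genes nearest to DnaJ-1 in rank; others named for their place in the small heat shock cluster were chosen after values were seen. Of 46 listed further genes 4 were left out because their symbols matched no single gene. The members and lists were chosen with earlier results of these data known. Windows, lists, assignment of summits and single replicates were varied. The promoter sequence of Hsc70-3 is not reported here.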

Additional observations from a re-analysis of the deposited data

How the results depend on the processing

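The number of called members ran from 3 to 6 over all alternatives: it was 3 with peaks at or above the median signal, 4 with a promoter of 200 bp, and 4 to 6 with 1 replicate left out. The count of inducible members was 1 with a promoter of 200 bp, against 3, because the Hsp83 and Hsp22 summits lie further upstream. The count of constitutive members was 1 with peaks at or above the median signal, against 3. Leaving out a replicate gave 2 to 3 for each class. The further chaperone genes numbered 11 with a promoter of 1000 bp, 4 with peaks in the lists of both replicates, 4 with peaks at or above the median signal, and 4 to 6 with 1 replicate left out, against 7. For all protein-coding genes, pooled peaks that overlap a peak in both replicates' lists gave 1473 (1487 genes were called in both lists, overlap or not) and peaks at or above the median signal gave 1482, against 2418. Other alternatives kept these gene counts within 1.5 times. Motif counts at the strongest summits of the 6 called members moved more with the window. With 50 bp on each side in place of 100 bp the DRE was at 0 in place of 1, TATCGAT at 1 in place of 2 and TATAAA at 2 in place of 4. With 250 bp the DRE was at 2, TATCGAT at 4, the heat shock element of 2 units at 2 in place of 1, and motif 7 at 2 in place of 0. From the gene start alone, Hsp22 and Hsc70-5 had their summits downstream, at 847 and 102 bp. Of those chosen after seeing the data, taking 3 ambiguous symbols as Stip1, STUB1 and CG5504 gave 9 of 45 further genes. The rank of Hsp22 was 37116 in replicate 2 alone, against 1720, and that of Hsc70-4 was 26156, against 8869. With the peak nearest a TSS in place of the strongest, Hsp83 ranked 1967 against 314. By the same change Hsc70-3 ranked 4883 against 1148, and Hsc70-4 ranked 24729. No paired analysis was possible because the series has 1 group and no result comes from a test. Read depth is unknown, so a promoter without a listed peak cannot be read as one without the protein.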
